A study of Felis catus with 36 samples.

Results

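Gene expression in the left ventricle of cats was compared between aortic banding and a sham operation at 1 month. The comparison was chosen by tissue, treatment and time in the labels and holds 8 of the 36 libraries of the series, 5 titled Banded 1month and 3 titled SHAM 1month. Per the labels, the treatment was Aortic Banding, in a feline model of HFpEF (heart failure with preserved ejection fraction), and the sham animals were the control. The labels give no genotype, breed, sex or age, do not say where the band was placed, and do not say whether each library came from a separate animal, so p-values measure the spread between these libraries, which may be technical. The series also covers 4 months and skeletal muscle. Per the labels, a stranded kit for mRNA was used on total RNA for all 8 libraries.

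A band around the aorta raises the pressure against which the left ventricle must eject. The muscle is known to answer such a load with thicker cardiomyocytes, a return of fetal contractile and natriuretic peptide genes, more extracellular matrix and a shift in fuel use, and the stiffer chamber then fills poorly. Heart failure with preserved ejection fraction is named for that pattern, in which filling is impaired while ejection is kept.

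The count files name genes by Ensembl identifiers, and the files do not pair them with symbols. Of 26681 identifiers, 0 were found in the RefSeq table of 39307 cat genes. Hence it could not be checked whether fetal, matrix or metabolic genes moved, nor whether cardiomyocyte markers were present or markers of blood, fat or other cell types differed between the groups. In bulk tissue, fewer cells of a type and less RNA per cell cannot be told apart. The genes are described here by their size of effect, level and spread, and 4 of them by identifier, with values in every library.

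The libraries of the groups were alike in depth. The sum over genes was 18.9 M counts in banded (SD 2.03 M, n = 5) and 18.6 M in sham libraries (SD 0.485 M, n = 3). Of all counts in a file, those outside genes or for multiply aligned reads included, 52.5% to 63.8% fell in genes in banded libraries. In sham libraries this share was 52.8% to 54.9%. Banded libraries had 16281 genes with a count on average (SD 112.3, n = 5) and sham libraries 16013 (SD 171.8, n = 3). With an exact permutation test, two-sided, over 7 such measures, the lowest p was 0.0714, for genes detected and for reads outside any gene, and 0.25 after Benjamini-Hochberg adjustment. With multiply aligned reads left out of the total, the share in genes was 75.1% to 81.4% in banded and 73.0% to 74.0% in sham libraries, so the groups did not overlap. That difference, 4.52 percentage points, had an exact permutation p of 0.0357, the smallest this design can give, and 0.107 after adjustment over 3 shares. Its part in the differences between genes was not tested.

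Sham library 2 stood apart from the other sham libraries. The difference between a pair of libraries was taken as the median over 13976 genes of the absolute difference in log2 CPM (a gene's counts scaled to a common library total). Sham libraries 1 and 3 differed by 0.25. Sham library 2 differed by 0.51 from sham library 1 and by 0.59 from sham library 3, the largest value among the 28 pairs. Its nearest library was banded library 2, at 0.27, and it lay 0.43 to 0.45 from the other 4 banded libraries. Banded library 2 in turn lay 0.29 to 0.37 from the other banded libraries, while those 4 lay 0.21 to 0.26 from each other. The pairs of a banded and a sham library averaged 0.39 (SD 0.07, 15 pairs), the pairs within sham 0.45 (SD 0.18, 3 pairs) and the pairs within banded 0.27 (SD 0.06, 10 pairs). Libraries of different treatments were thus no farther from each other, on average, than the sham libraries were among themselves. Without sham library 2 the order turned, with 0.38 between treatments (SD 0.06, 10 pairs) and 0.25 for the remaining sham pair.

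**Figure D1:**
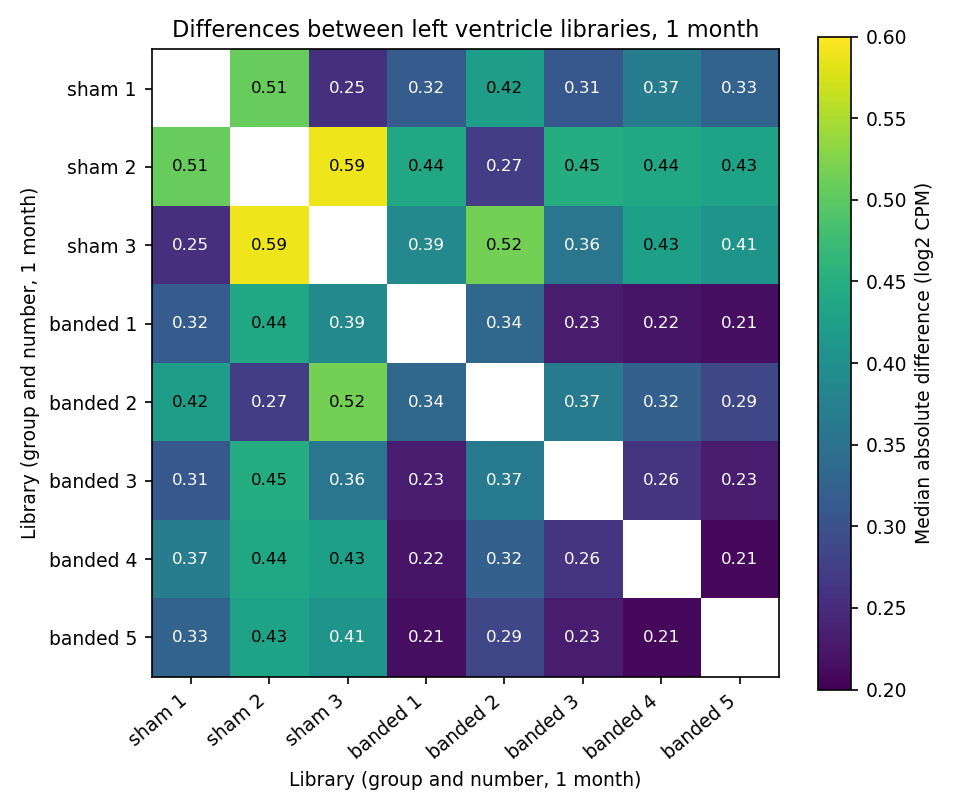
Median absolute difference in log2 CPM over 13976 genes for each pair of the 8 left ventricle libraries of 1 month, with sham and banded libraries by number on both axes. Sham libraries 1 and 3 (0.25) and banded libraries 1, 3, 4 and 5 (0.21 to 0.26) form close sets, and sham library 2 is nearest to banded library 2 (0.27).

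The distance of sham library 2 was spread over many genes. In 3147 of 13976 genes it lay more than 2-fold from the mean of the other sham libraries, 1919 above and 1228 below. The same count was 1116 for sham library 1, 1774 for sham library 3, each against the other sham libraries, and 491 to 867 for the banded libraries. On the first principal component of the 8 libraries, with 34.5% of the variance, sham libraries 1 and 3 lay at -36.7 and -60.3, banded libraries 1, 3, 4 and 5 between -10.4 and 12.1, banded library 2 at 33.4 and sham library 2 at 53.2. The component thus ordered the libraries with the banded ones between sham libraries 1 and 3 on the low side and sham library 2 on the high side. Sham library 2 did not stand apart in depth (19.0 M gene counts) or in the share of counts in genes (54.7%). Its 16211 genes detected compared with 15910 and 15917 in sham libraries 1 and 3. What set it apart was not tested further.

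Spread within a group depended on level as well. The median over genes of the standard deviation of log2 CPM was 0.38 in sham and 0.26 in banded libraries, and the sham value was the larger in 67.2% of genes. Between sham libraries 1 and 3 alone it was 0.18, and among banded libraries without library 2 it was 0.21. A median SD tends to run low when it rests on few libraries, and most so for a pair. These values rest on unequal numbers of libraries, so they do not show which set was tighter. For the same reason they are not like for like with the medians of the full groups. In genes with a mean under 1 CPM the medians were 0.65 in sham and 0.59 in banded libraries. In genes of 100 CPM or more they were 0.34 and 0.21. The abundant genes were therefore the ones in which sham spread exceeded banded spread most often, in 73.5% of them.

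The contrast of banded with sham asks what banding had changed in the ventricle by 1 month. Of the 26681 identifiers, 7939 had no count in any of the 8 libraries and 13976 passed the filter on low counts. With all 3 sham libraries, no gene was called at an adjusted p under 0.05 with edgeR (0%), and the lowest adjusted p was 0.124. Without adjustment, 1216 genes had a p under 0.05, which is 8.7% of those tested, with 453 higher and 763 lower in banded libraries. DESeq2 on the same counts called 100 genes, 0.716% of those tested, 13 higher and 87 lower, and limma voom called 0 without sample quality weights, with 1214 genes at an unadjusted p under 0.05. With such weights, which were 0.204 for sham library 2 and 3.40 for sham library 1, voom called 2430 genes.

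The differences were small for most genes and large most often where levels were low. The median size of the log2 fold change was 0.21, beside a median standard error (SE) of 0.26. In 655 genes (4.69%) the size passed 2-fold, 452 higher and 203 lower in banded libraries, in 21.6% of the genes with a mean under 1 CPM and in 1.37% of those of 10 to 100 CPM. Of these 655, 15 had no count in any library of a group, so their fitted value is no measure of size. All 5 banded libraries lay on the same side of all 3 sham libraries in 150 of the 655 genes (22.9%). Over all genes tested this held in 6.12%, with banded higher in 371 genes (2.65%) and lower in 484 genes (3.46%). Most of the differences over 2-fold thus came from groups that overlapped.

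Direction went with level. Of genes under 1 CPM, 7.09% had an unadjusted edgeR p under 0.05, 77 higher and 31 lower in banded libraries. Of those of 1 to 10 CPM, 6.58% did, 190 higher and 90 lower. Of those of 10 to 100 CPM, 9.29% did, 164 higher and 466 lower. Of those of 100 CPM or more, 14.0% did, 22 higher and 176 lower. The share over all genes tested was 8.7%, and no gene was called in any class. The median log2 fold change moved from 0.25 in the lowest class to -0.14 in the highest, and stood at -0.01 over all genes.

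The gene with the smallest p among those lower in banded libraries was ENSFCAG00000009591. It stood at 36.2, 32.9 and 53.3 CPM in sham libraries 1, 2 and 3. In banded libraries 1 to 5 it stood at 8.58, 22.5, 8.36, 8.61 and 8.06 CPM. The groups did not overlap, and banded library 2 lay between the other banded libraries and the sham libraries. The banded mean was 11.2 CPM (SD 6.29, n = 5) and the sham mean 40.8 CPM (SD 10.9, n = 3), a log2 difference of -1.86 with an SE of 0.33 and an edgeR adjusted p = 0.124. Without sham library 2 it was -1.99 (SE 0.36, adjusted p = 0.0107 with edgeR), so this gene fell, 3.98-fold, in that fit. Without banded library 2 it was -2.28 (adjusted p = 0.0016 with edgeR). Across alternatives its adjusted p lay between 7.97e-05 and 0.821, and without both sham libraries 2 and 3 it was 0.304.

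Among genes higher in banded libraries, ENSFCAG00000034951 had the smallest p at a mean of 1 CPM or more. Its level was 4.35, 3.44 and 3.55 CPM in sham libraries 1, 2 and 3. In banded libraries 1 to 5 its level was 7.20, 7.17, 6.38, 8.16 and 7.34 CPM. Here every banded library lay above every sham library, sham library 2 was the lowest of all, and banded library 2 lay inside its group. The banded mean was 7.25 CPM (SD 0.631, n = 5) and the sham mean 3.78 CPM (SD 0.496, n = 3), a log2 difference of 0.94 with an SE of 0.21 and an edgeR adjusted p = 0.136. Without sham library 2 the difference was 0.87 with an SE of 0.25 and an edgeR adjusted p = 0.0541, so edgeR called it in neither fit. DESeq2 called it, with an adjusted p of 0.00967, and across alternatives its adjusted p lay between 0.00875 and 0.821.

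**Figure D2:**
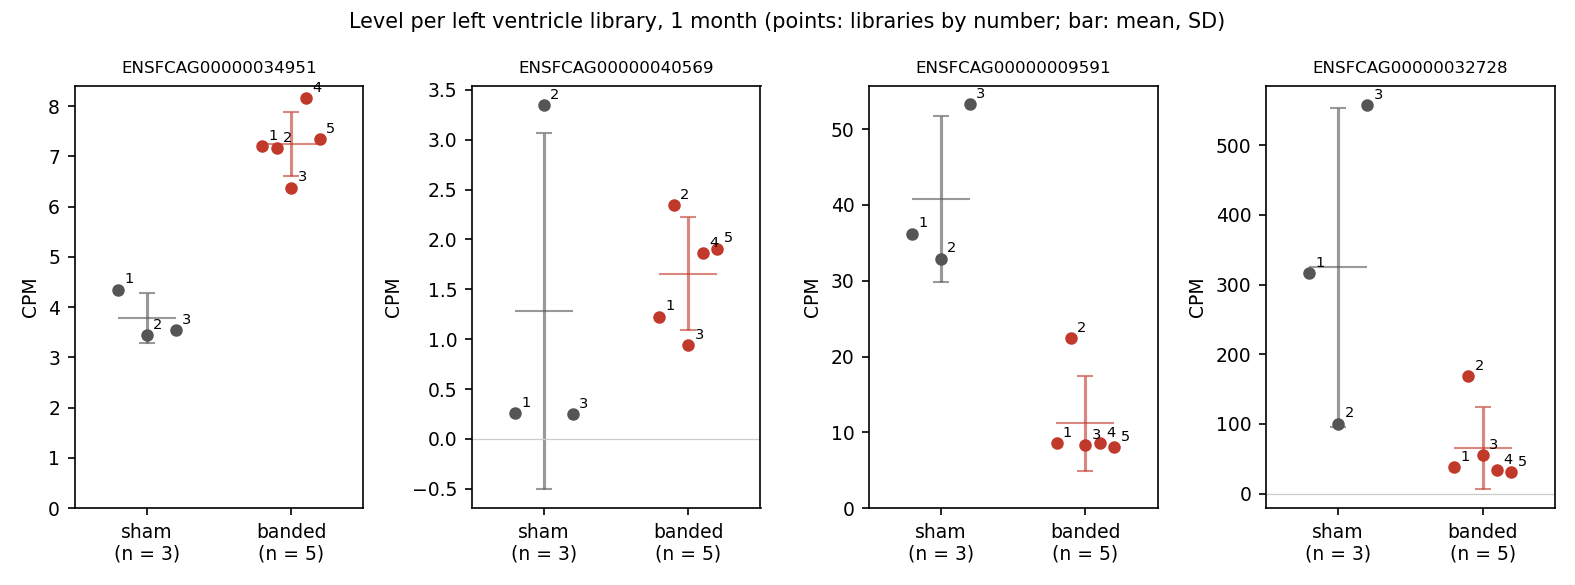
Level in CPM of 4 genes in each left ventricle library of 1 month, with points numbered by library and bars for the mean and SD of 3 sham and 5 banded libraries. ENSFCAG00000034951 and ENSFCAG00000009591 have groups that do not overlap, while sham library 2 lies above all banded libraries for ENSFCAG00000040569 and within their range for ENSFCAG00000032728.

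Leaving out sham library 2 changed the outcome of the comparison. Of 14199 genes then tested, edgeR called 571 (4.02%), 305 higher and 266 lower in banded libraries, and 2923 genes (20.6%) had an unadjusted p under 0.05. Banded libraries 1 to 5 did not overlap sham libraries 1 and 3 in 33.1% of genes, with banded higher in 17.1% and lower in 16%. The size passed 2-fold in 1630 genes (11.5%), and 1069 of those had groups that did not overlap. Of the 1630, 39 had no count in any library of a group, so their fitted value is no measure of size. By chance alone, groups separate more readily against 2 sham libraries than against 3. Shares without overlap are therefore not like for like with the 6.12% for all 3 sham libraries. The library was left out with its distance known, and the sham group then rests on 2 libraries.

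The genes that rose and fell without sham library 2 differed in level and size. The 305 that rose had a median log2 fold change of 1.31 (median SE 0.30), and 234 of them (76.7%) passed 2-fold. They were called for their change in this same fit, where the median size over all genes tested was 0.33. The median level of the 305 was 12.0 CPM. The 266 that fell had a median log2 fold change of -0.75 (median SE 0.17), 63 of them (23.7%) passed 2-fold, and their median level was 61.3 CPM. The 100 called genes with 100 CPM or more, 7.08% of those tested at that level, held 8 that rose and 92 that fell. The 150 called at 1 to 10 CPM, 3.52% of those tested at that level, held 133 that rose and 17 that fell. Over all levels 4.02% were called. With all 3 sham libraries the same 305 genes had a median of 0.32 and the 265 of the 266 that were tested had a median of -0.55. With all 3 sham libraries, the unadjusted edgeR p was under 0.05 in 41 of the 305 and in 232 of the 266. Over all genes tested that share was 8.7%. The 2 fits share all libraries but sham library 2, so this is no separate test.

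**Figure D3:**
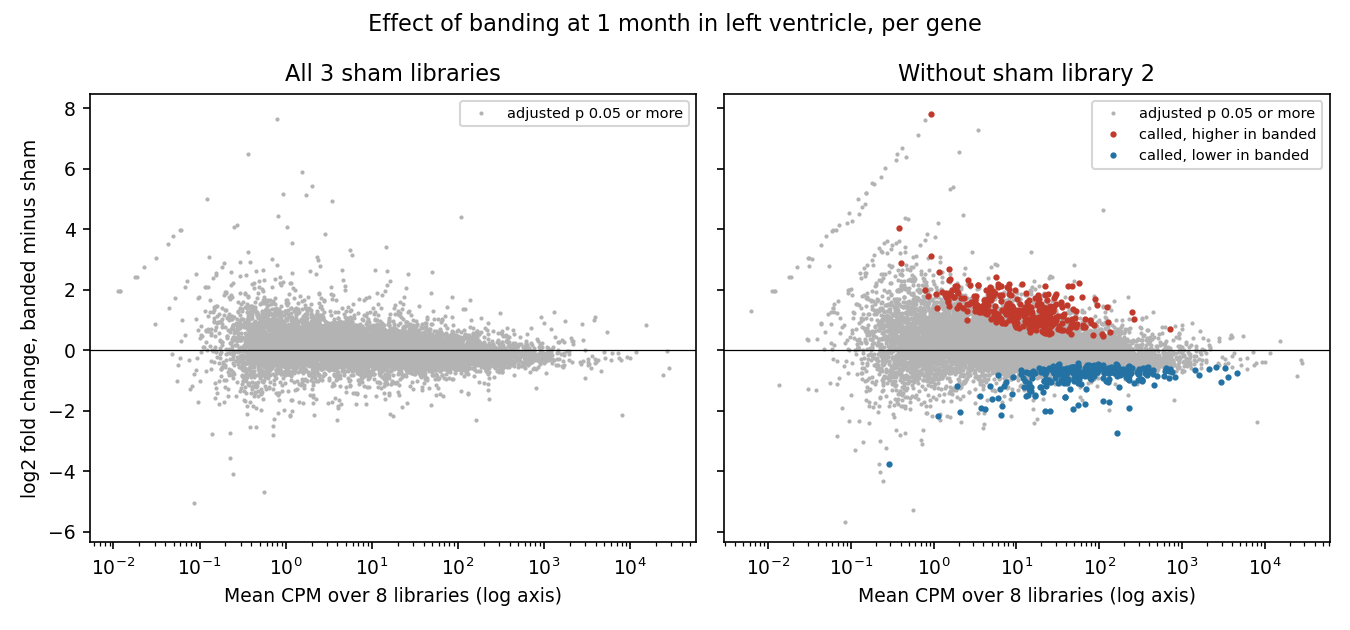
Log2 fold change of banded minus sham against the mean CPM over 8 libraries (log axis), 1 point a gene, with all 3 sham libraries on the left and without sham library 2 on the right. Coloured points are called at an adjusted p under 0.05 with edgeR, 0 on the left and 571 on the right, where the 305 higher genes lie at lower CPM and larger size than the 266 lower genes.

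Sham library 2 did not enter the fit that called those 571 genes. It was left out with its distance from sham libraries 1 and 3 known, and with it 0 genes were called. The position of sham library 2 in these genes is therefore a description and no separate test. Among the 305 genes that rose, it lay nearer to the banded mean than to the mean of sham libraries 1 and 3 in 302, above the banded mean in 278 and above all 5 banded libraries in 234 (76.7%). Among the 266 that fell, it lay nearer to the banded mean in 224, past it in 117 and below all 5 banded libraries in 52 (19.5%). It stayed on the sham side of all 5 banded libraries in 11 of the 305 (3.61%) and in 80 of the 266 (30.1%). Over all genes tested with a higher or a lower banded mean, those shares were 21.6% and 20.9%. Over all 14199 genes tested sham library 2 was nearer to the banded mean in 67.9% and past all 5 banded libraries in 33.0%. The share past all 5 was 35.4% where the banded mean was higher and 30.6% where it was lower. In the genes that fell it was thus past all 5 less often than in lower genes at large. Sham library 2 lay on the sham side of all 5 banded libraries in 15.9% of the 571 genes, against 21.2% over all genes tested. In most genes, called or not, its level was thus like that of banded libraries or farther from sham libraries 1 and 3. All these positions are measured from sham libraries 1 and 3, which also enter the calls.

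**Figure D4:**
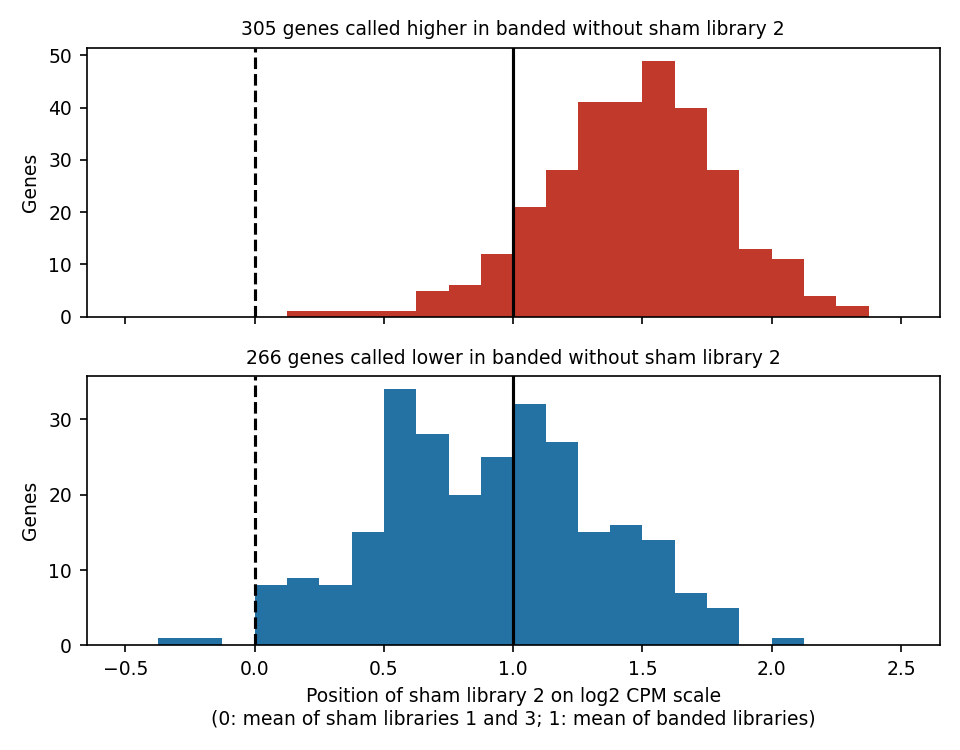
Position of sham library 2 in log2 CPM for the 571 genes called without it, as a number of genes (vertical axis), where 0 is the mean of sham libraries 1 and 3 and 1 the mean of the 5 banded libraries. The median position is 1.49 for the 305 genes higher in banded libraries and 0.92 for the 266 lower genes.

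The other sham libraries were left out in the same way. Without sham library 1 or without sham library 3, edgeR called 0 genes, and 885 and 823 had an unadjusted p under 0.05. In the 885 genes, sham library 1 was nearer to the banded mean in 39.3%, against 45.0% over all genes tested. In the 823 genes, sham library 3 was nearer to the banded mean in 44.2%, against 51.3% over all genes tested. For sham library 2 the share was 86.6% of its 2923 genes, against 67.9% over all genes tested. With sham library 1 or 3 left out, the remaining sham pair holds sham library 2. That library differed by 0.59 from sham library 3 and by 0.51 from sham library 1. The shares for sham libraries 1 and 3 thus carry the same distance and are no control for sham library 2. Among banded libraries, leaving out library 2 gave 62 genes, all lower in banded libraries, and leaving out any 1 of the other 4 gave 0, with 903 to 1224 genes at an unadjusted p under 0.05. Without library 2 of both groups edgeR called 379 genes, 166 higher and 213 lower.

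The calls without sham library 2 rested on single libraries too. With sham library 3 also left out, the count was 0, while 1323 genes had an unadjusted p under 0.05. With sham library 1 also left out it was 133, where the spread of the lone sham library was taken from the other groups. With banded library 1, 4 or 5 also left out it called 284, 206 and 290, and 509 without banded library 3. With library number as a block, a pairing that the labels do not give, edgeR called 25 genes.

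Of the 299 genes that rose without sham library 2 and had a mean of 1 CPM or more, ENSFCAG00000040569 showed the largest change. It stood at 0.256 CPM in sham library 1, 3.35 CPM in sham library 2 and 0.249 CPM in sham library 3, from 5, 72 and 4 counts. In banded libraries 1 to 5 it stood at 1.23, 2.34, 0.94, 1.86 and 1.91 CPM. Sham library 2 was thus the highest of the 8, banded library 2 came next, and sham libraries 1 and 3 were the lowest. On the log2 scale banded minus sham was 2.68 without sham library 2, with an SE of 0.48 and an edgeR adjusted p = 0.01. With all 3 sham libraries it was 0.34, with an SE of 0.60 and an edgeR adjusted p = 0.921. It was -0.14 without sham library 1 and -0.12 without sham library 3, so its direction depended on which sham libraries were used. With sham library 1 also left out the log2 difference was 2.71 (SE 0.69, adjusted p = 0.065 with edgeR). Leaving out sham library 3 in place of library 1 gave 2.67 (SE 0.67, adjusted p = 0.283 with edgeR). The call was thus lost in both at a like size and a larger SE.

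Of the 265 genes that fell without sham library 2 at that level, ENSFCAG00000032728 changed most. Its level was 316.0, 100.5 and 557.3 CPM in sham libraries 1, 2 and 3. In banded libraries 1 to 5 its level was 37.5, 168.4, 55.4, 33.8 and 30.7 CPM. Banded library 2 lay above sham library 2, and the other 4 banded libraries lay below all 3 sham libraries. Banded minus sham on the log2 scale was -2.74 without sham library 2, with an SE of 0.62 and an edgeR adjusted p = 0.0243. It was -2.32 with all 3 sham libraries, with an SE of 0.61 and an edgeR adjusted p = 0.191. Without banded library 2 and with all sham libraries it was -3.04 (adjusted p = 0.0227 with edgeR). The call without sham library 2 was lost when sham library 1 or 3 or banded library 1, 4 or 5 was also left out, with adjusted p from 0.0508 to 0.416. These last 2 genes were taken for the size of their change without sham library 2, so their sizes are not those of a typical called gene.

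The 4 named genes were picked for their p or change at 1 month, and differences picked so tend to be smaller in other libraries. Whether an effect of banding faded or turned was not tested. At 4 months, as values without a test, the banded and sham means of the lower genes lay closer together. Those of the higher genes were lower in banded than in sham left ventricle. For ENSFCAG00000009591 the banded mean was 15.7 CPM (SD 5.19) and the sham mean 22.0 CPM (SD 3.27), with n = 5 in each. For ENSFCAG00000032728 they were 121.8 CPM (SD 72.1) and 138.8 CPM (SD 72.1). For ENSFCAG00000034951 they were 9.24 CPM (SD 1.84) and 11.2 CPM (SD 2.51), and for ENSFCAG00000040569 1.41 CPM (SD 0.339) and 1.95 CPM (SD 0.494). In skeletal muscle at 1 month, scaled on its own, the banded mean of ENSFCAG00000009591 was 12.3 CPM (SD 1.89, n = 5) and its sham mean 16.0 CPM (SD 1.48, n = 3). For ENSFCAG00000032728 these were 80.4 CPM (SD 50.3, n = 5) and 77.0 CPM (SD 4.33, n = 3). For ENSFCAG00000034951 the muscle means were 2.46 CPM with banding (SD 0.545, n = 5) against 1.62 CPM with sham (SD 0.574, n = 3). For ENSFCAG00000040569 they were 0.442 CPM (SD 0.153, n = 5) and 0.336 CPM (SD 0.106, n = 3).

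The authors' deposited table of the comparison lists 13791 genes, of which 2155 have no adjusted p. It holds 77 with an adjusted p under 0.05 (0.558% of those listed), 7 higher and 70 lower in banded animals. For ENSFCAG00000009591 the authors' deposited table gives -1.85 on the log2 scale (SE 0.37, adjusted p = 0.00289 with DESeq2). For ENSFCAG00000032728 the authors' deposited table gives -2.30 (SE 0.63, adjusted p = 0.0413 with DESeq2). For ENSFCAG00000034951 the authors' deposited table gives 0.95 (SE 0.30, adjusted p = 0.127 with DESeq2). For ENSFCAG00000040569 the authors' deposited table gives 0.36 (SE 0.70) and no adjusted p. Of the 77 genes in the authors' deposited table, 71 (92.2%) were among the 100 that DESeq2 called on the deposited counts, or 71% of those. Of the same 77, 66 (85.7%) were among the 571 called by edgeR without sham library 2, or 11.6% of those. The 571 were 4.02% of the genes tested in that fit. These lists rest on largely the same libraries, so their overlap is no separate support for any of them. When SHAM 4month library 1 was given the counts of SHAM 1month library 1, DESeq2 called 74 genes, 6 higher and 68 lower, and all 74 were in the authors' deposited table. SHAM 4month libraries enter this comparison through the low-count filter, the scaling and the shared estimate of the spread.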

How the data were processed

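RNA of 8 left ventricle libraries of 1 month was compared. The authors deposited whole-number counts per gene, 1 file per library, not normalized. The submitters' processing notes name DESeq2 1.22.2, HTSeq 0.11.2 and HISAT2 2.1.0; the genome build, annotation and strand setting are not given in the sources used here. The authors' deposited table of this comparison gives a log2 fold change with its error and an adjusted p-value per gene. It entered no fit.

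The 5 summary lines of reads not assigned to a gene were dropped. Reads counted as lying in no gene made up 11.6% to 15.1% of all counts in a file, and multiply aligned reads 18.3% to 30.6%. Counts were fitted with edgeR 4.0.16 (R 4.3.3) over all 18 left ventricle libraries of 4 groups, so that groups share an estimate of the spread, with filterByExpr, scaling by trimmed means of M values (TMM) and the two-sided quasi-likelihood test. A gene was called when its adjusted p was under 0.05 (Benjamini-Hochberg over all genes tested). The SE given with edgeR is the size of the log2 fold change divided by the square root of the test's F statistic. It is thus not computed as the SE of DESeq2 is. CPM used TMM-scaled totals; log2 CPM added a prior count of 2. The scripts were tested on simulated data.

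Alternatives were DESeq2 1.42.0, limma 3.58.1 voom with and without sample quality weights, relative log expression (RLE) scaling, other low-count filters, the 2 groups alone, library number as a block, and each library left out. Upper-quartile scaling and leaving out both libraries 2 were added after seeing the data. The comparison, the tests and the rule for naming genes were chosen with earlier results of these data known, including the distance of sham library 2. The rule named, in each direction and at a mean of 1 CPM or more, the gene with the smallest p and, other than that, the gene with the largest change among those called without sham library 2. The gene lists and cell type markers fixed for this comparison were not used, since identifiers could not be joined to symbols. Where left-out libraries lie was described after the values were seen. No pair of libraries within a group was identical, and chi-square per degree of freedom was 36.3 or more.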

Additional observations from a re-analysis of the deposited data

Results flagged for a closer look

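Of 23 groups of 5 libraries examined, 2 had a library far from the others of its group, and chance alone gives about 1 in 20. Both were banded library 2 at 1 month, at 22.5 CPM for ENSFCAG00000009591, where the other 4 banded libraries lay between 8.06 and 8.61 CPM, and at 168.4 CPM for ENSFCAG00000032728, where the others lay between 30.7 and 55.4 CPM. Both values lay toward those of sham libraries.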

How the results depend on the processing

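With all 3 sham libraries the count of 0 genes stayed at 0 with voom without weights, RLE or upper-quartile scaling, other filters, the 2 groups alone and the block. It was 100 with DESeq2, 2430 with voom and quality weights (0.204 for sham library 2 and 3.40 for sham library 1), 74 with DESeq2 where SHAM 4month library 1 was given the counts of SHAM 1month library 1, and 379 without both libraries 2. With 1 library left out it ran from 0 to 571. Without sham library 2, the 571 genes became 1180 with DESeq2, 2016 with voom and quality weights, 362 with no low-count filter and 1124 with the 2 groups alone, and ran from 0 to 509 with a further library left out. It was 393 with voom without weights, 543 with RLE scaling and 661 at a mean of 1 CPM or more. The causes were not tested.

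Library numbers did not meet the rule for pairing, since the correlation for number 1 was too low. Deviations of same-numbered sham and banded libraries correlated at 0.0938, 0.34 and 0.227 across genes, and each of these 3 sham libraries correlated best with its own number, a hint from the data and not from the design. With the replicate block the count was 0 with all sham libraries and 25 without sham library 2, where adjusted p with edgeR was 0.0664 for ENSFCAG00000009591, 0.0714 for ENSFCAG00000040569 and 0.125 for ENSFCAG00000032728.

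The direction of ENSFCAG00000040569 reversed without sham library 1 (-0.14) and without sham library 3 (-0.12), where values with 1 library left out reached 2.68, and that of the difference in gene counts, 0.262 M, without sham library 3 (-0.00346 M) and without banded library 5 (-0.475 M), where such values reached 0.845 M. The 3 other named genes kept their direction in all alternatives. With all 3 sham libraries, edgeR told no difference of any size from the spread at an adjusted p under 0.05. ENSFCAG00000009591, at -1.86 with an SE of 0.33, had an edgeR adjusted p of 0.124.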
